A study of Mus musculus with 9 samples.

Results

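The heat shock genes described here were 10 genes chosen by name from the 20926 genes measured, and all 10 passed the filter on low levels that left 12366 genes for testing. They comprised 5 genes of the HSP70 system (Hspa1a, Hspa1b, Hspa8, Hsph1 and Dnajb1), both cytosolic HSP90 genes (Hsp90aa1 and Hsp90ab1), the mitochondrial chaperonin pair (Hspd1 and Hspe1) and the heat shock factor Hsf1. RNA from the blood of male DBA/1 mice, whose labels give blood leukocyte and an age of 7 weeks (the age at which the mice were divided into groups, before immunisation, not that at blood sampling), was sequenced in 9 libraries, 3 in each of 3 groups, and the labels name no engineered allele. The Ctrl group had no arthritis induced. The CIA group had collagen-induced arthritis, a model of rheumatoid arthritis raised by immunisation with type II collagen in adjuvant and a booster. The CIA+THz group had the same arthritis, and its swollen ankles received 0.1 THz radiation in daily sessions of 30 min on 14 days, under isoflurane. Whether the other groups were anaesthetised, and the time between the last exposure and the taking of blood, are not given in the sources used here. The irradiated tissue was the ankle and the sequenced tissue was blood, so that the values describe circulating cells only.

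Heat shock proteins are chaperones, which bind unfolded or newly made proteins and help them fold. In unstressed cells HSF1, the product of Hsf1, is held inactive by chaperones, and when unfolded proteins occupy those chaperones, as after heating, it forms trimers, binds heat shock elements and switches on genes such as Hspa1a, Hspa1b, Hsph1, Dnajb1 and Hsp90aa1. Hspa8 and Hsp90ab1 are made constitutively, and in leukocytes the same chaperones also serve signalling kinases and steroid hormone receptors. The comparison of CIA+THz with CIA asked whether transcripts of this response stood higher in the blood of irradiated mice, and the comparisons with Ctrl gave the state of the same genes in arthritis.

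Levels are given as rescaled FPKM, the FPKM deposited by the authors (fragments scaled for transcript length and library size) after division by a factor per library. The number of genes above 0 was 11801 to 12807 per library and highest in CIA+THz. The FPKM carried no trace of whole reads, so the depth is unknown and no counting interval could be given. Log2 levels of all genes correlated at r = 0.93 to 0.96 within groups and at r = 0.92 to 0.96 between groups, and no library stood apart. Markers of neutrophils, monocytes, T cells, B cells and NK cells were present in every group, but the red cell gene Alas2 alone took 11.4% to 16.7% of the summed FPKM, although the labels name leukocytes. The summed level of 11 red cell precursor markers ran from 82608 to 128499 over the Ctrl libraries, 100451 to 115030 over the CIA libraries and 56029 to 78379 over the CIA+THz libraries, lowest without overlap in CIA+THz, whereas the mean log2 level of the same markers overlapped between CIA and CIA+THz. The summed neutrophil markers ran from 12435 to 21008, 14589 to 19140 and 10700 to 12133 over the same groups, also lowest in CIA+THz, but the mean log2 level of the list was not, at 7.11 to 7.57 over the Ctrl libraries, 7.85 to 8.62 over CIA and 7.37 to 7.63 over CIA+THz. Of the 11 neutrophil markers 3 were higher and 3 lower past the criterion in CIA+THz against Ctrl, and their part and that of the red cell markers in the results was not tested. In such bulk RNA, fewer cells of a type and less RNA per cell cannot be told apart.

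The sequences through which HSF1 acts were looked up for the 6 genes with an entry in the RefSeq promoter table on GRCm38.p6. A heat shock element is built of inverted units of 5 bases. Pairs of such units, GAANNTTC and TTCNNGAA, are each their own reverse complement, so that a search of 1 strand covers both. Hspa1a and Hspa1b lie 12918 bases apart on chromosome 17, and the 250 bases before their starts differ at 3 positions. The promoter of Hspa1a is printed because it carries a match of 2 units that both genes share, with the match in capitals. It lies at chr17:34972157-34972406 on the minus strand of GRCm38.p6, directly before the start, outside annotated exons.
Hspa1a promoter: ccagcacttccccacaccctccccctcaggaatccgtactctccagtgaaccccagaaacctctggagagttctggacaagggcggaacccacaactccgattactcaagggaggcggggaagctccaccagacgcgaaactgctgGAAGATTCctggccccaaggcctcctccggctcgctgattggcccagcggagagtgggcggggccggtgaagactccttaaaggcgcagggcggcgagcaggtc
The match lies 104 to 97 bases before the start, and the same 8 letters stand at the same place in Hspa1b. For Hsph1 and for the Hspd1 and Hspe1 pair only 30 bases around the match are shown, again with the match in capitals.
Hsph1 site: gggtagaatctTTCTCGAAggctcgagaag
Hspe1 site: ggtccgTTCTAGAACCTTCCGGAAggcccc
The Hsph1 site lies at chr5:149636351-149636380 on the minus strand, overlapping an annotated Hsph1 exon, and its match is 33 to 26 bases before one RefSeq start of Hsph1 and 54 to 47 bases before the other. The Hspe1 site lies at chr1:55088053-55088082 on the plus strand, inside an annotated Hspd1 exon, and holds 4 alternating units 89 to 72 bases before the Hspe1 start. The same units lie 144 to 127 bases before one of the RefSeq starts of Hspd1 on the other strand. A pair of units, in either order, occurred in 12.8% of all 32851 promoters searched, a run of 3 units in 0.466% and a run of 4 units in 0.0213% of them. The search allowed no mismatched base in a unit, and on that rule the longest run before Hspa1a, Hspa1b and Hsph1 was 2 units. Longer runs that include a mismatched unit were not counted, for these genes or for all promoters. No exact match was found before either RefSeq start of Dnajb1, in windows that overlap an annotated exon of Tecr or of Dnajb1 itself. A match is a description of letters and does not show that HSF1 was bound in these cells.

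Hspa8, the constitutive HSC70, dominated the set. The mean level was 783 ± 136, 974 ± 83.1 and 752 ± 20.0 (SD, n = 3) for Ctrl, CIA and CIA+THz, which put it at percentile 99.5 of all genes tested, and it took 82.4% to 89.0% of the summed FPKM of the 10 genes in each library. Hsp90ab1 ranged from 46.9 to 60.1 and Hsp90aa1 from 31.3 to 59.2 over the 9 libraries, with overlap. Dnajb1 at 11.6 to 17.8 and Hsph1 at 7.18 to 19.5 came next, below every library of Hsp90aa1 and overlapping each other. Hsf1 at 4.57 to 8.65, Hspe1 at 2.53 to 7.00, Hspd1 at 1.77 to 2.60, Hspa1b at 0.699 to 2.86 and Hspa1a at 0.625 to 1.73 followed, each overlapping its neighbour in that order. The 2 genes of inducible HSP70 had the lowest mean levels of the set, although Hspa1b lay above Hspd1 in some libraries and its level depends on how reads were split between the pair.

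**Figure D1:**
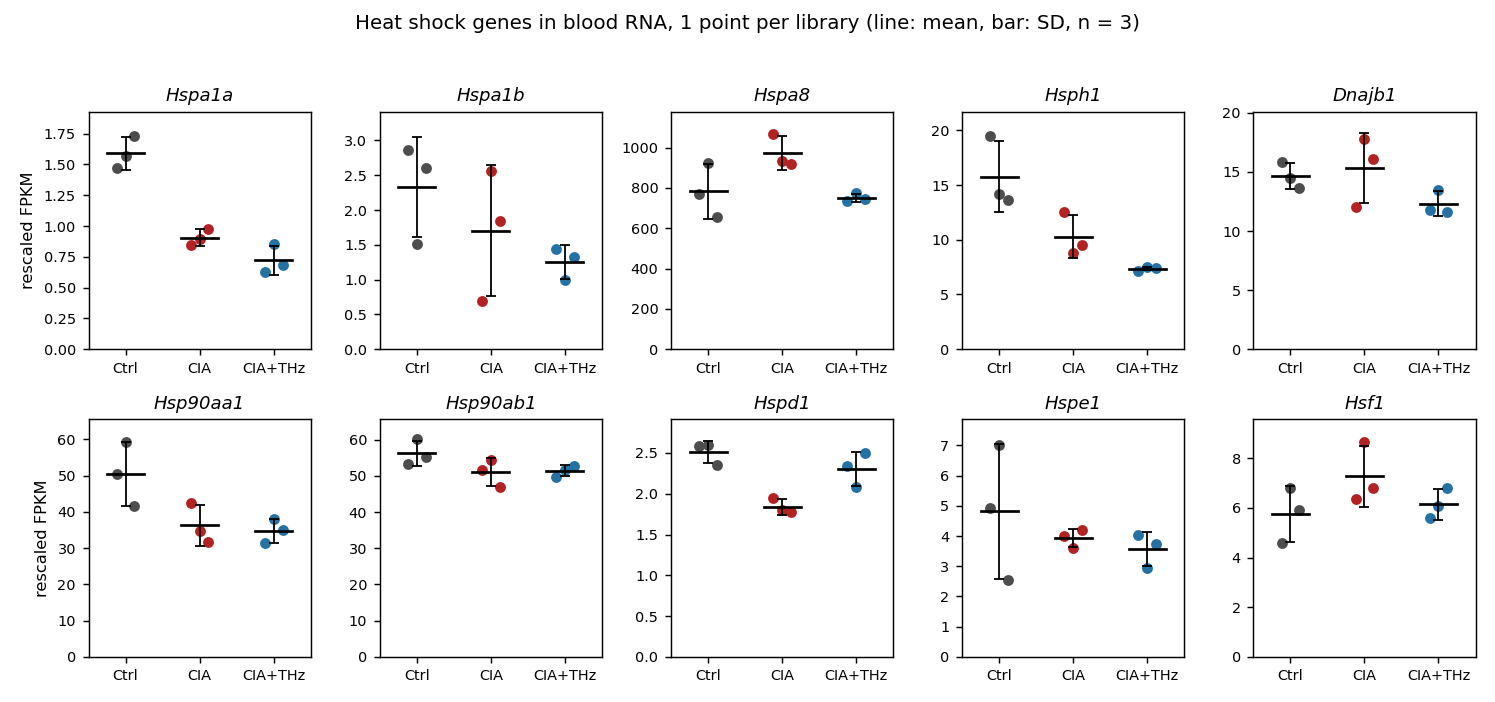
Level of each heat shock gene in rescaled FPKM, on a linear axis starting at 0, with 1 point per library, the group mean as a line and the SD as a bar (n = 3 per group). Hsph1 and Hspa1a are highest in the 3 Ctrl libraries, and Hspa8 is lower in all 3 CIA+THz libraries than in any CIA library.

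In CIA+THz against CIA, none of the 10 heat shock genes met the criterion, which asks of limma an unadjusted p under 0.05 together with an absolute log2 fold change above 0.67, against 4.54% of all genes tested. Of the 10 estimates 2 were above 0 and 8 below, while 52.9% of all genes were above 0, and the median log2 fold change was -0.25 for the 10 genes against 0.03 for all genes. An unadjusted p under 0.05 was found for 2 genes, Hspa8 and Hsph1, both with lower levels in CIA+THz, against 13.2% of all genes, but which genes these were, and their direction, depended on the scaling. The ranges of the 3 and 3 libraries did not overlap for 3 genes, Hspa8, Hsph1 and Hspd1, against 19.6% of all genes. No gene in the whole table had an adjusted p under 0.05 in this comparison (limma, 1634 genes with an unadjusted p under 0.05), and the smallest adjusted p of any gene was 0.164.

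The 95% intervals set how large a rise in CIA+THz over CIA the data leave room for in each gene on this scale. The upper 95% limit of the fold between CIA+THz and CIA was 1.33 for Hspa1a, 1.84 for Hspa1b and 1.08 for Dnajb1. It was 0.954 for Hsph1, 1.21 for Hsp90aa1 and 1.14 for Hsf1. The widest limits were those of Hspa1b and of Hspd1, at 1.77.

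Hspa1a (chr17:34969190-34972156, minus strand of GRCm38, as for all genes here), one of the near-identical genes of the inducible HSP70, stood at 1.47, 1.57 and 1.73 in the Ctrl libraries, at 0.844, 0.891 and 0.978 in the CIA libraries and at 0.625, 0.851 and 0.687 in the CIA+THz libraries. All 6 arthritic libraries lay below the 3 Ctrl libraries, and the arthritic groups overlapped each other. The gene fell by 1.05 on the log2 scale in CIA+THz against Ctrl (SE 0.31, adjusted p = 0.159 by limma), a call that held without each library and was lost with FPKM as deposited (-0.77) or a pseudocount of 1 (-0.59). In CIA against Ctrl it fell by 0.75 (SE 0.32, adjusted p = 0.287 by limma), a call that was lost when any 1 of the 6 libraries was left out, at -0.80 to -0.69, and in most other settings. Between CIA+THz and CIA the log2 difference was -0.30 (SE 0.30, adjusted p = 0.6997 by limma).

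Hspa1b (chr17:34956436-34959238, minus strand), its neighbour, stood at 2.86, 1.52 and 2.60 in the Ctrl libraries, at 0.699, 2.56 and 1.85 in the CIA libraries and at 1.45, 0.987 and 1.33 in the CIA+THz libraries. The CIA libraries spread over nearly the whole range of the gene, and all 3 CIA+THz libraries lay below all 3 Ctrl libraries. The gene fell by 0.81 in CIA+THz against Ctrl (SE 0.34, adjusted p = 0.267 by limma). This call held without Ctrl replicate 2 at -1.08 and was lost without each of the other 5 libraries, at -0.91 to -0.64, and in most other settings. The log2 difference was -0.55 in CIA against Ctrl and -0.26 in CIA+THz against CIA, neither past the criterion.

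Reads cannot always be assigned to one of this pair. Of the windows of 150 bases in the Hspa1a transcript, 39.7% occurred unchanged in another annotated gene, mostly Hspa1b, and 40.5% of those of Hspa1b did. The paper gives paired reads, so these shares, here and for the genes below, are of single windows and not of sequenced fragments. How the authors' counting placed such reads is not given in the sources used here, so the separate levels are uncertain. Added together, the pair stood at 3.92 ± 0.719, 2.61 ± 0.974 and 1.97 ± 0.121 (SD, n = 3) for Ctrl, CIA and CIA+THz. The sum fell by 0.94 on the log2 scale in CIA+THz against Ctrl (SE 0.24, adjusted p = 0.137 by limma), with -0.62 for CIA against Ctrl (adjusted p = 0.403) and -0.31 for CIA+THz against CIA (adjusted p = 0.712).

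Hsph1 (chr5:149614287-149636376, minus strand), the HSP110 nucleotide exchange factor of HSP70, gave the clearest difference in the set. Levels were 19.5, 14.2 and 13.6 in the Ctrl libraries, 12.5, 8.82 and 9.48 in the CIA libraries and 7.18, 7.48 and 7.44 in the CIA+THz libraries. The 3 groups did not overlap, with Ctrl highest and CIA+THz lowest. The gene fell by 1.07 on the log2 scale in CIA+THz against Ctrl (SE 0.17, adjusted p = 0.0660 by limma), a fold of 0.476, and it passed the criterion under each scaling, pseudocount and filter tried and without each library in turn. In the test over the 3 groups its adjusted p was 0.0333 by limma.

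The other steps of Hsph1 were smaller. In CIA against Ctrl the log2 difference was -0.61 (SE 0.21, adjusted p = 0.208 by limma), short of the fold threshold, which it passed without Ctrl replicate 2, Ctrl replicate 3 or CIA replicate 1 (-0.68, -0.71 and -0.76). For CIA+THz against CIA it was -0.46 (SE 0.16, adjusted p = 0.319 by limma). Hsph1 shared no window of 150 bases with another gene. Over the 9 libraries its log2 level correlated with the mean log2 level of the red cell precursor markers at r = 0.84, and that of Hsp90aa1 at r = 0.85. With B cell markers r was -0.82 for Hsph1 and -0.56 for Hsp90aa1, and with monocyte markers -0.63 and -0.76. These values are a description over points that share groups and libraries, and the part of any of these cells in the levels was not tested.

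Hspa8 (chr9:40800984-40810087, plus strand), which uncoats clathrin vesicles besides folding proteins, did not follow the order of the groups seen in Hsph1. Levels were 770.3, 925 and 654 in the Ctrl libraries, 1069.5, 932 and 919.8 in the CIA libraries and 736, 774 and 745 in the CIA+THz libraries. The CIA libraries lay above the CIA+THz libraries, and the Ctrl libraries overlapped both. The log2 difference was -0.37 in CIA+THz against CIA (SE 0.11, adjusted p = 0.265 by limma), with a 95% upper limit of the fold of 0.924, and 0.33 in CIA against Ctrl (SE 0.17, adjusted p = 0.371 by limma). With FPKM as deposited the difference from CIA shrank to -0.093, with an upper limit of 1.11.

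The ratio of Hspa8 to Hsph1 was 50.9 ± 13.03, 96.1 ± 10.2 and 102 ± 1.69 (SD, n = 3) for Ctrl, CIA and CIA+THz. Both arthritic groups lay above Ctrl without overlap (exact permutation test, two-sided p = 0.1 each, the smallest that 3 against 3 can give), and the 2 arthritic groups overlapped (exact p = 0.4). Of the Hspa8 windows, 55.4% occurred in another annotated gene, mostly in processed copies such as Gm15459, so its level depends on how such reads were counted.

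Dnajb1 (chr8:83608193-83612653, plus strand), the HSP40 that delivers clients to HSP70 and is itself heat-inducible, stood at 15.8, 14.5 and 13.6 in the Ctrl libraries, at 12.0, 17.8 and 16.1 in the CIA libraries and at 11.8, 13.5 and 11.6 in the CIA+THz libraries. The CIA+THz libraries lay below the Ctrl libraries and overlapped the CIA libraries. The log2 difference was -0.30 in CIA+THz against CIA (SE 0.17, adjusted p = 0.495 by limma), 0.05 in CIA against Ctrl and -0.25 in CIA+THz against Ctrl, none past the criterion.

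**Figure D2:**
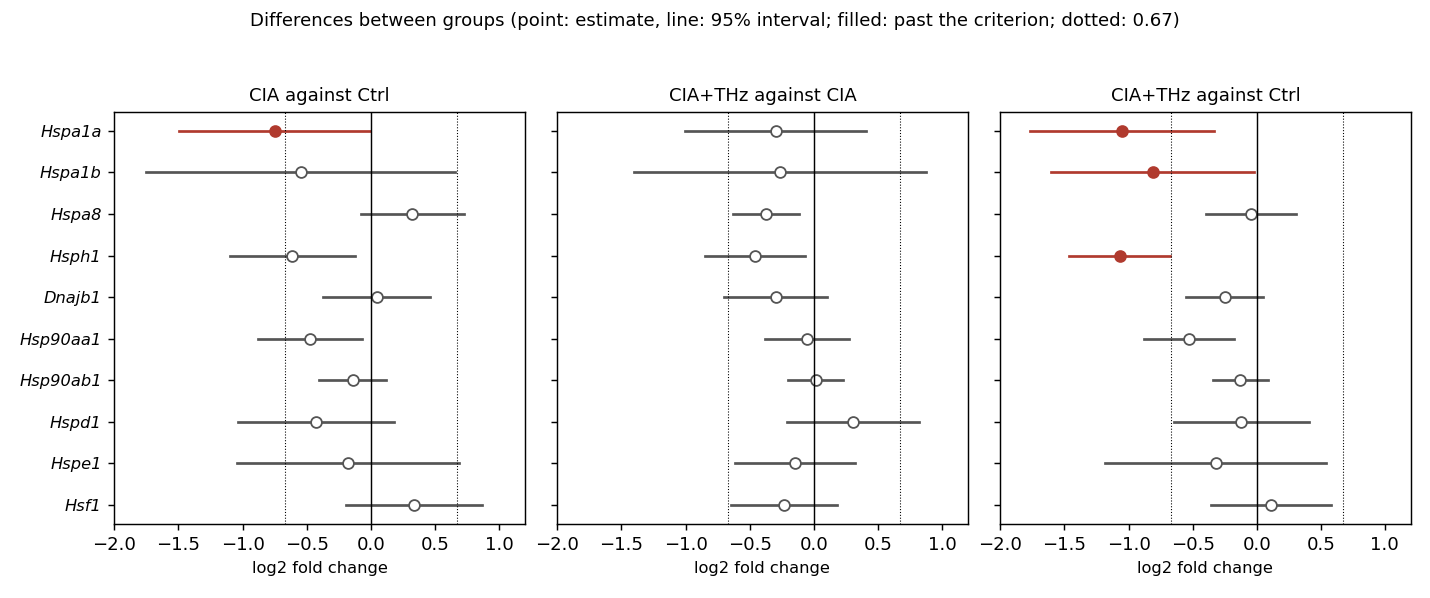
Log2 fold change of each heat shock gene in the 3 comparisons, with the 95% interval from limma as a line, filled points for genes past the criterion and dotted lines at a log2 fold change of 0.67 in either direction. No point is filled in CIA+THz against CIA, 1 is filled in CIA against Ctrl and 3 in CIA+THz against Ctrl, all below 0.

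Of the HSP90 genes, Hsp90aa1 (chr12:110690605-110702728, minus strand) encodes the inducible cytosolic form. Levels were 50.6, 59.2 and 41.7 in the Ctrl libraries, 42.5, 34.6 and 31.7 in the CIA libraries and 31.3, 38.0 and 35.0 in the CIA+THz libraries. The highest CIA library lay just above the lowest Ctrl library, and CIA+THz lay below Ctrl without overlap. The log2 difference was -0.47 in CIA against Ctrl (SE 0.17, adjusted p = 0.231 by limma) and -0.53 in CIA+THz against Ctrl (SE 0.15, adjusted p = 0.152 by limma), both under the fold threshold. In CIA+THz against CIA it was -0.05, with an upper 95% limit of the fold of 1.21. Of its windows 36.2% occurred in other annotated genes.

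Hsp90ab1 (chr17:45567775-45573271, minus strand), the constitutive form, had small differences in all 3 comparisons with rescaled FPKM, though not as deposited, where the log2 difference of CIA+THz from CIA was 0.29. The mean level was 56.2 ± 3.44, 51.0 ± 3.80 and 51.4 ± 1.54 (SD, n = 3) for Ctrl, CIA and CIA+THz. The log2 difference was 0.01 in CIA+THz against CIA and -0.14 and -0.13 in CIA and CIA+THz against Ctrl, and no other member kept all 3 differences that small. The ratio of Hsp90aa1 to Hsp90ab1 was 0.896 ± 0.123, 0.711 ± 0.0978 and 0.676 ± 0.0545 (SD, n = 3) for Ctrl, CIA and CIA+THz, apart without overlap only between CIA+THz and Ctrl (exact permutation p = 0.1).

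The mitochondrial chaperonin HSP60, encoded by Hspd1 (chr1:55077835-55088243, minus strand), folds imported proteins in the matrix together with its lid HSP10, encoded by the divergent neighbour Hspe1 (chr1:55088132-55091307, plus strand). Hspd1 stood at 2.58, 2.60 and 2.35 in the Ctrl libraries, at 1.95, 1.80 and 1.77 in the CIA libraries and at 2.34, 2.09 and 2.50 in the CIA+THz libraries. The CIA libraries were the 3 lowest, apart from both other groups. On the log2 scale CIA differed from Ctrl by -0.43 (SE 0.26, adjusted p = 0.433 by limma) and CIA+THz from CIA by 0.31 (SE 0.22, adjusted p = 0.577 by limma), and neither passed the test. With FPKM as deposited the second difference was 0.57, with an upper 95% limit of the fold of 2.15. Hspd1 had the largest estimate above 0 of the set in CIA+THz against CIA on both scales. Summed monocyte markers, 5320 to 5915 in CIA against 3142 to 3448 in Ctrl and 3581 to 3850 in CIA+THz, also set the CIA libraries apart, and so did summed T cell markers, at 422 to 472 against 507 to 579 and 520 to 696. Over the 9 libraries the log2 level of Hspd1 correlated with the mean log2 level of neutrophil markers at r = -0.87 and of monocyte markers at r = -0.81. With NK cell markers r was 0.78 and with T cell markers 0.62. The B cell, platelet and red cell precursor lists gave -0.16, -0.18 and 0.38. These values are a description, and the part of any of these cells in the Hspd1 values was not tested.

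Hspe1 stood at 4.92, 7.00 and 2.53 in the Ctrl libraries, at 4.0, 3.59 and 4.19 in the CIA libraries and at 4.02, 2.95 and 3.73 in the CIA+THz libraries. The Ctrl libraries spanned the whole range of the other groups. Its log2 difference was -0.14 in CIA+THz against CIA and -0.18 in CIA against Ctrl, so the chaperonin pair, which shares the element printed above, did not show a common order of the groups.

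Hsf1 itself (chr15:76477422-76501913, plus strand) stood at 4.57, 6.80 and 5.90 in the Ctrl libraries, at 6.35, 8.65 and 6.81 in the CIA libraries and at 5.58, 6.07 and 6.82 in the CIA+THz libraries. All groups overlapped. Its log2 difference was 0.34 in CIA against Ctrl (SE 0.22, adjusted p = 0.476 by limma) and -0.23 in CIA+THz against CIA, and the RNA level of this factor does not measure its activity, which depends on trimer formation and phosphorylation.

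Against Ctrl, the counts were as follows. In CIA 1 of 10 genes, Hspa1a, passed the criterion, lower, against 9.04% of all genes in either direction and 4.25% lower, and in CIA+THz 3 of 10 did, Hspa1a, Hspa1b and Hsph1, all lower, against 7.88% of all genes in either direction and 3.24% lower. Of the estimates, 3 of 10 were above 0 in CIA and 1 of 10 in CIA+THz, against 49.3% and 53.7% of all genes. The ranges did not overlap for 3 genes in CIA, Hspa1a, Hsph1 and Hspd1, all lower, against 23.5% of all genes in either direction and 11.8% lower. In CIA+THz they did not overlap for 6 genes, Hspa1a, Hspa1b, Hsph1, Dnajb1, Hsp90aa1 and Hsp90ab1, all lower, against 24% of all genes in either direction and 12% lower. No adjusted p was under 0.05 in limma for any of the 10 genes in either comparison, against 0.154% of all genes in CIA and 0.105% in CIA+THz, while 3 and 4 of the 10 had an unadjusted p under 0.05, against 17.3% and 18.1%. Over the 3 groups 3 genes, Hsph1, Hsp90aa1 and Hspa1a, had an unadjusted p under 0.05, against 21.3% of all genes, and Hsph1 alone had an adjusted p under 0.05, against 2.53%. The comparisons share libraries and are not independent of each other.

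The direction of small differences in CIA+THz depended on the scaling between libraries. With FPKM as deposited, the median of all genes shifted by 0.28 on the log2 scale in CIA+THz against CIA, by 0.31 in CIA+THz against Ctrl and by 0.03 in CIA against Ctrl. Of the 10 heat shock genes 5 were then above 0 and 5 below in CIA+THz against CIA, against 79.1% of all genes above 0, with Hsp90aa1 at 0.22, Hspe1 at 0.13 and Hsf1 at 0.044. An unadjusted p under 0.05 was found for Hsp90ab1 (0.29) and Hspd1 (0.57), both higher in CIA+THz, against 21% of all genes, and no longer for Hspa8 (-0.093) and Hsph1 (-0.18). None of the 10 passed the criterion on that scale either, against 9.67% of all genes. The upper 95% limit of the fold was 2.27 for Hspa1b, 2.15 for Hspd1, 1.60 for Hspa1a and 1.56 for Hspe1. It lay between 1.11 for Hspa8 and 1.43 for Hsp90ab1 in the other 6 genes, with Hsph1 at 1.14, Dnajb1 at 1.36, Hsf1 at 1.39 and Hsp90aa1 at 1.41. The lower level of Hsph1 in CIA+THz against Ctrl stayed past the criterion at -0.77, whereas Hspa1a and Hspa1b did not pass it.

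**Figure D3:**
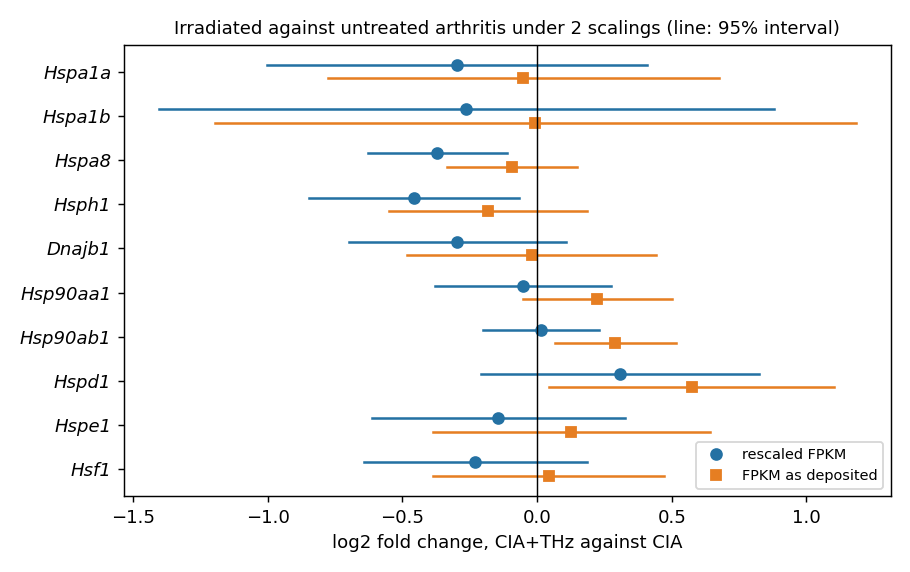
Log2 fold change of each heat shock gene in CIA+THz against CIA, with rescaled FPKM as circles and FPKM as deposited as squares, and the 95% interval from limma as a line. The squares lie to the right of the circles for each gene, by about the shift of 0.28 in the median of all genes, and Hspa8 and Hsph1 are the genes whose interval lies below 0 with rescaled FPKM, whereas as deposited the intervals of Hsp90ab1 and Hspd1 lie above 0.

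Other genes of protein folding were read from 6 lists, and in CIA+THz against CIA none of their 70 tested genes passed the criterion, against 4.54% of all genes. Against Ctrl, the lists' counts given next stand beside 4.25% of all genes lower in CIA and 3.24% lower in CIA+THz, and beside 9.04% and 7.88% in either direction. The list of other HSF1 targets held 17 tested genes. Past the criterion and lower were 2 of them in CIA against Ctrl, Dnajb4 and Hspb1, and 3 in CIA+THz against Ctrl, Dnaja1, Cacybp and Hspb1, with none higher in either comparison.

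Dnaja1, a constitutive and heat-inducible HSP40, stood at 45.4, 42.4 and 35.3 in the Ctrl libraries, at 29.9, 30.5 and 26.6 in the CIA libraries and at 21.2, 19.8 and 21.2 in the CIA+THz libraries. The 3 groups did not overlap and stood in the same order as for Hsph1. It fell by 0.98 in CIA+THz against Ctrl (SE 0.12, adjusted p = 0.0519 by limma), with -0.67 as deposited, just short of the fold threshold. In CIA+THz against CIA the log2 difference was -0.48 (SE 0.10, adjusted p = 0.210 by limma).

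Dnajb4, another HSP40, fell by 0.76 in CIA against Ctrl (SE 0.23, adjusted p = 0.180 by limma), and was short of the fold threshold without Ctrl replicate 1 (-0.65) or CIA replicate 2 (-0.62). Cacybp, a binding partner of the SIAH1 ubiquitin ligase, fell by 0.80 in CIA+THz against Ctrl (SE 0.22, adjusted p = 0.144 by limma), and was short of the threshold without Ctrl replicate 1 (-0.66) or CIA+THz replicate 1 (-0.67) and with FPKM as deposited (-0.49). Hspb1, the small heat shock protein HSP27, was at 7.48, 3.32 and 2.39 in the Ctrl libraries, at 0.564, 0 and 1.89 in the CIA libraries and at 1.38, 1.06 and 2.35 in the CIA+THz libraries. Both arthritic groups lay below Ctrl without overlap, by very little for the nearest libraries. The log2 difference in CIA against Ctrl was -2.98 (adjusted p = 0.224 by limma), or -1.59 and -4.14 with pseudocounts of 1 and 0.01 and -1.80 without CIA replicate 2. The call was lost with the pseudocount of 0.01, with no filter and without Ctrl replicates 1 or 2 or CIA replicate 1 (-2.52, -3.09 and -3.17). In CIA+THz against Ctrl it was -1.31 (adjusted p = 0.215 by limma), lost as deposited (-1.02), with all 3 groups in 1 fit and without Ctrl replicate 1 or CIA+THz replicates 1 or 2 (-0.86, -1.25 and -1.08), and in CIA+THz against CIA it passed only without CIA replicate 3 (2.65).

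Among 16 other co-chaperones, Fkbp5 alone passed the criterion, in both comparisons with Ctrl. Fkbp5 encodes FKBP51, an HSP90 co-chaperone of steroid receptors and a well-known target of glucocorticoids. Levels were 77.9, 102 and 121 in the Ctrl libraries, 15.8, 67.0 and 17.4 in the CIA libraries and 22.1, 22.4 and 26.0 in the CIA+THz libraries. Every arthritic library lay below every Ctrl library, with CIA replicate 2 between the others. It fell by 2.07 on the log2 scale in CIA+THz against Ctrl (SE 0.17, limma adjusted p = 0.0158) and by 1.89 in CIA against Ctrl (SE 0.53, limma adjusted p = 0.156), or by 2.56 without CIA replicate 2.

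**Figure D4:**
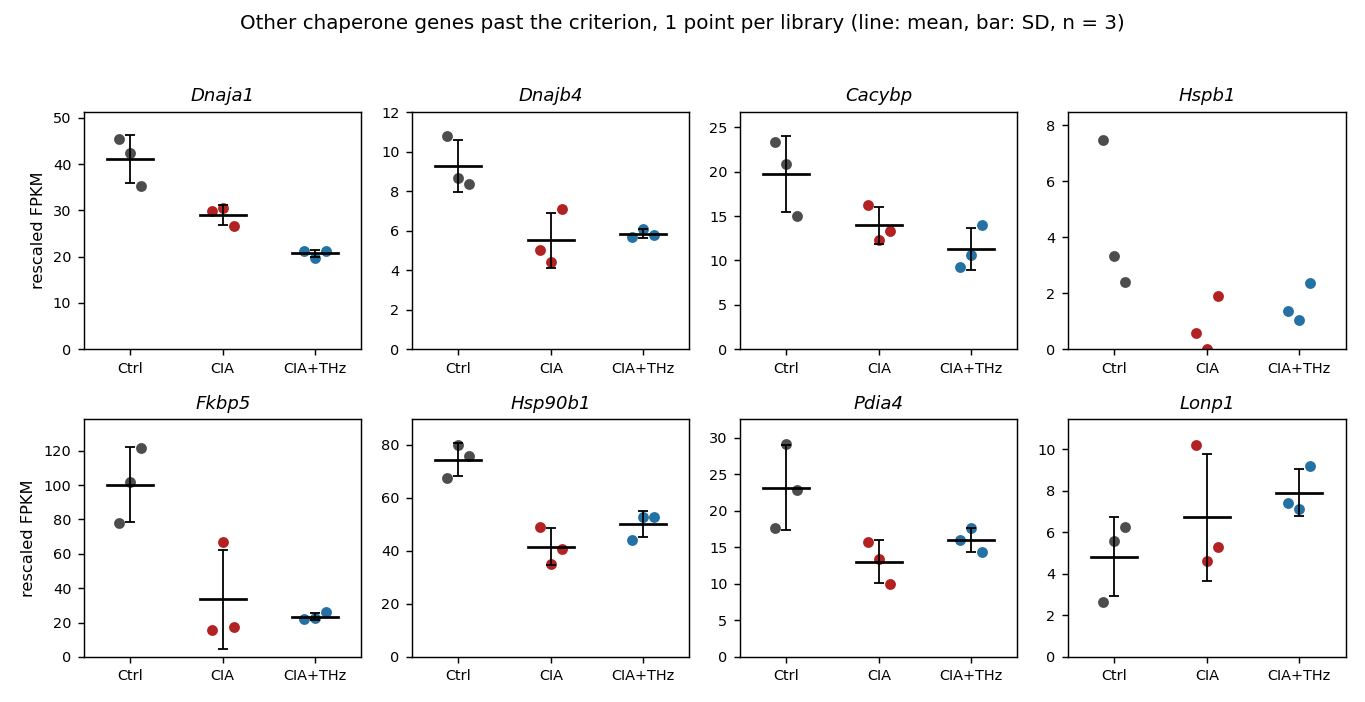
Level in rescaled FPKM, on linear axes starting at 0, of the 8 genes of the 6 lists that passed the criterion in a comparison with Ctrl, with 1 point per library, the group mean as a line and the SD as a bar (n = 3 per group), and points only for Hspb1, which has a library listed at 0. Dnaja1 steps down from Ctrl to CIA to CIA+THz without overlap, and 1 CIA library of Fkbp5 lies at 67.0 while the other arthritic libraries lie at 26.0 or less.

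None of the 8 genes of the cytosolic chaperonin CCT, which folds actin and tubulin, passed in any comparison. Of 11 genes of mitochondrial protein quality control, the protease gene Lonp1 was higher in CIA+THz against Ctrl by 0.79 (SE 0.32, adjusted p = 0.264 by limma), a call lost without Ctrl replicate 1 (0.41) or CIA+THz replicates 1, 2 or 3 (0.83, 0.86 and 0.67), with either other pseudocount, with no filter and with no trend. Of 16 genes listed for the chaperones and the stress response of the endoplasmic reticulum, Hsp90b1 fell by 0.85 (SE 0.15, limma adjusted p = 0.0669) and Pdia4 by 0.82 (SE 0.24, limma adjusted p = 0.172) in CIA against Ctrl. Pdia4 was short of the fold threshold without Ctrl replicate 2 (-0.64) or CIA replicate 3 (-0.64). Of the heat shock factors besides Hsf1, Hsf2 and Hsf4 were tested and did not pass, and Hsf3 and Hsf5 were listed at 0. Hsf2 was low, at 1.25, 1.36 and 0.999 in the Ctrl libraries, 1.08, 0.778 and 0 in the CIA libraries and 1.69, 2.02 and 1.29 in the CIA+THz libraries. CIA+THz lay above CIA without overlap, by 1.89 on the log2 scale (SE 0.91, adjusted p = 0.424 by limma). Hsf2 passed there as deposited (2.15), with a pseudocount of 1 (0.78), with the replicate block, with all 3 groups in 1 fit and without CIA replicate 1 (2.56). That was the only 1 of the 6 fits without a library in which it passed. Without CIA replicate 3, the library listed at 0, the log2 difference fell to 0.78 and did not pass.

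The genes most alike in pattern to the mean of Hspa1a, Hspa1b, Hsph1, Dnajb1 and Hsp90aa1 over the 9 libraries, of 9738 compared, were Cxcr2, Bend4, Mcl1, Il1f9 and Clec4d. Pearson's r was 0.98, 0.97, 0.97, 0.97 and 0.96 in that order, over points that share groups, libraries and cell makeup, and is given as a description. Cxcr2, a chemokine receptor of neutrophils, stood at 709 ± 72.1, 554 ± 58.7 and 454 ± 29.8 (SD, n = 3) for Ctrl, CIA and CIA+THz. Mcl1, a survival factor of the BCL2 family, stood at 462 ± 49.0, 392 ± 14.7 and 336 ± 4.65 in the same groups. Cxcr2 is 1 of the 11 neutrophil markers, of which 3 were higher and 3 lower past the criterion in CIA+THz against Ctrl. The mean log2 level of that list correlated with Hsp90aa1 at r = -0.40, Hspa1a at -0.26, Hsph1 at -0.24, Hspa1b at 0.01 and Dnajb1 at 0.60. The part of neutrophils in the pattern was not tested.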

How the data were processed

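The authors deposited 1 table of FPKM, a column per library, for 20926 gene symbols. The submitters' processing notes name bcl2fastq 2.0, HISAT2, StringTie, DESeq2 and the build mm10. The annotation and the handling of reads that match several genes are not given in the sources used here. Samples were grouped by their labels. The labels do not say that each library is a separate mouse, so p-values measure the spread between these libraries.

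Each column was divided by its median ratio to the geometric mean of the 10312 genes above 0 in all 9 libraries. The 12366 genes with a mean of at least 0.1 were tested as log2(rescaled FPKM + 0.1) with limma 3.58.1 in R 4.3.3, with a trend of variance on mean, each pair of groups on its 6 libraries, so fold changes of low genes are understated. The criterion was an unadjusted p under 0.05 with an absolute log2 fold change above 0.67, with Benjamini-Hochberg adjusted p over all genes tested beside it. Ratios and sums were compared with two-sided exact permutation tests, whose smallest p is 0.1. Intervals are 95% intervals. Scripts were tested on simulated data.

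The members and lists were chosen with earlier results of these data known. Named were the 10 members, genes of the lists past the criterion (at most 3 of a list by smallest p), and the 5 genes most alike in pattern with a mean of at least 1. Coordinates are from GRCm38, with shared windows of 150 bases counted over GENCODE transcripts. Alternatives were other scalings, pseudocounts of 1 and 0.01, a mean filter of 1 or none, no trend, adjusted p, the replicate block, Hspa1a and Hspa1b summed, all 3 groups in 1 fit and each library left out.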

Additional observations from a re-analysis of the deposited data

How the results depend on the processing

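The 10 heat shock genes held 0 calls in CIA+THz against CIA under every setting tried and without each library. Their 1 call in CIA against Ctrl became 0 with FPKM as deposited, upper quartile scaling, either other pseudocount, a mean filter of 1, adjusted p, the replicate block or the summed pair, and was 0 to 1 without each library. Their 3 calls in CIA+THz against Ctrl became 1 as deposited, 1 with a pseudocount of 1 and 0 with adjusted p (2 to 3 without each library). They became 2 with upper quartile scaling, a pseudocount of 0.01, a mean filter of 1, no filter, the summed pair or all 3 groups in 1 fit. The 3 genes over all groups became 1 with adjusted p and 4 with no trend (2 to 4 without each library). Same-numbered libraries did not deviate together over all genes (r = -0.05 to 0.03), and the numbers were treated as names only. Such values cannot exclude a pairing with a small effect or an effect on few genes. With the replicate block 1 listed gene, Hsf2, passed in CIA+THz against CIA, against 0. The other folding genes there numbered 2 as deposited (Hsf2 and Ppid), 1 with a pseudocount of 1 and 1 with all 3 groups in 1 fit (0 to 2 without each library). In CIA against Ctrl they were 0 with adjusted p (4 to 9), and in CIA+THz against Ctrl 1 (2 to 10). All genes past the criterion in CIA+THz against CIA were 561, with 363 higher, but as deposited 1199, of which 1133 were higher, 283 with a pseudocount of 1 and 0 with adjusted p (480 to 744 without each library). In CIA+THz against Ctrl 975 became 1720 as deposited and 13 with adjusted p (731 to 1498), and in CIA against Ctrl 1118 became 19 with adjusted p. As deposited the sign changed in CIA+THz against CIA for Hsp90aa1 (0.22), Hspe1 (0.13), Hsf1 (0.044) and Fkbp5 (0.10), and in CIA+THz against Ctrl for Hspa8 (0.26), Dnajb1 (0.056), Hsp90ab1 (0.18) and Hspd1 (0.18), none of which had passed the criterion there. Leaving out 1 library changed further signs of uncalled differences. In CIA+THz against CIA these were Hspa1b (-0.77 to 0.10), Hsp90aa1 (-0.14 to 0.067), Hsp90ab1 (-0.045 to 0.062), Dnajb4 (-0.028 to 0.31) and Fkbp5 (-0.54 to 0.49). In CIA against Ctrl they were Dnajb1 (-0.071 to 0.21) and Hspe1 (-0.57 to 0.14), and in CIA+THz against Ctrl Hsf1 (-0.045 to 0.24), Hspa8 (-0.17 to 0.082) and Hspe1 (-0.71 to 0.00051). The cause of these changes was not tested. Fits that leave a group with 2 libraries have fewer degrees of freedom, and unknown depth limits the low genes, above all Hspa1a, Hspa1b and Hspd1.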
